A study of Mus musculus with 20 samples.

Results

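The enzymes that turn cholesterol into bile acids were followed in the livers of mice on 4 diets. The set holds 10 listed genes (Cyp7a1, Cyp8b1, Cyp27a1, Cyp7b1, Hsd3b7, Akr1d1, Amacr, Acox2, Slc27a5 and Baat), and all 10 were measured, among 18193 genes in all. Each gene was read from 1 probe set, namely the brightest of those annotated to that gene alone. Livers came from 20 male C57BL/6J mice, 1 Affymetrix whole-genome mouse array per mouse and 5 mice per group. The CL + AX group received the CL diet with 0.02% astaxanthin, the CL + VE group the CL diet with 0.02% vitamin E, the CL group the diet alone, and the NC group normal chow (CRF-1). The CL diet drew 60% of its calories from fat and also contained cholesterol (1.25%) and sodium cholate (0.5%). All groups shared the strain, the sex, a start at 7 weeks of age, 12 weeks of feeding and a fast of 2 h before collection. NC and CL differ in fat, cholesterol and cholate at once, and the part of each in a difference between them cannot be told apart.

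Bile acids are made in hepatocytes by a classic route, which begins with hydroxylation of the sterol ring by Cyp7a1, and by an acidic route, which begins with oxidation of the side chain by Cyp27a1 and goes on through Cyp7b1. Cyp8b1 adds the hydroxyl group that distinguishes cholic acid, Hsd3b7 and Akr1d1 reshape the rings, Amacr and Acox2 act in the peroxisomal shortening of the side chain, and Slc27a5 and Baat join the product to an amino acid. Bile acids returning to the liver are known to repress the pathway through the nuclear receptor FXR (Nr1h4) and its target SHP (Nr0b2). Cholate, an ingredient of the CL diet, is itself a bile acid.

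Values are log2 signals after quantile normalization, which gives every array the same distribution of signals. A difference is the log2 fold change of the first group over the second, tested in limma in 1 model of the 4 groups. A gene was called when its p, adjusted by the Benjamini-Hochberg method over 45037 probe sets, was under 0.05. The 5 mice per group limit the precision, and over all probe sets the standard error (SE) of a difference had a median of 0.36.

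The arrays did not start from a common level. The median deposited signal of an array ran from 26.4 to 27.8 in the CL + AX group, from 17.1 to 20.8 in the CL + VE group, from 19.4 to 24.9 in the CL group and from 13.0 to 18.9 in the NC group. The ratio of the 3' to the 5' probe set of Gapdh, which reads RNA integrity, averaged on the log2 scale -0.14 ± 0.051 in CL + AX, -0.033 ± 0.12 in CL + VE, -0.17 ± 0.062 in CL and 0.57 ± 0.14 in NC (SD, n = 5 each). The spiked control RNA Dap gave 0.91 ± 0.10 in CL + AX, 1.07 ± 0.43 in CL + VE, 0.97 ± 0.16 in CL and 2.96 ± 0.15 in NC for the same ratio. The log2 signal of 18S rRNA was 11.86 ± 0.19 in CL + AX, 11.59 ± 0.25 in CL + VE, 11.73 ± 0.52 in CL and 9.49 ± 0.45 in NC. In all 3 measures the NC arrays stood wholly apart, above the others in the ratios and below them in 18S. After quantile normalization the 11 hepatocyte markers measured had a mean log2 signal between 13.24 and 13.33 in every array. That step gives all arrays the same top signals, so markers this bright had little room to differ. In CL relative to NC, 2 were called as higher and 1 as lower, where 12% and 11.3% of all genes were. Without scaling 1 and 1 were, where 28.2% and 1.17% of all genes were. Under median centring 0 and 10 were, where 9.37% and 15.2% of all genes were. Under trimmed-mean scaling 0 and 8 were, where 15.2% and 10.2% of all genes were. The 10 macrophage markers averaged 8.52 ± 0.57 in CL + AX, 8.05 ± 0.61 in CL + VE, 8.26 ± 0.79 in CL and 5.76 ± 0.47 in NC, where the highest NC array (6.41) lay below the lowest of the others (7.41). Of them, 9 of 10 were called as higher in CL than in NC, where 12% of all genes were, with a median log2 fold change of 2.19. No marker was listed at 0. Relative to NC, 5 of 7 stellate cell, 5 of 6 endothelial, 2 of 4 leukocyte and 1 of 5 cholangiocyte markers were also called as higher in CL. The cholangiocyte count is near the 12% of all genes called as higher. Dap is added and not made by the liver, so its ratio does not read the integrity of liver RNA. The NC arrays differ from the rest in it, so array preparation and diet cannot be told apart in comparisons with NC. The parts of RNA quality, array preparation and cell composition in the differences below were not tested. In whole liver, fewer cells of a type and less RNA per cell cannot be told apart.

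RefSeq's table of mouse promoters (build GRCm38.p6) held 5 of the 10 genes. The 250 bases before the start of 3 genes called between CL and NC are printed, Cyp8b1 because it fell and Akr1d1 and Hsd3b7 because they rose, each 5′ to 3′ on the gene's own strand and with motif matches in capitals. They lie at chr9:121916306-121916555 (minus strand), chr6:37529923-37530172 (plus strand) and chr7:127800359-127800608 (plus strand).
Cyp8b1: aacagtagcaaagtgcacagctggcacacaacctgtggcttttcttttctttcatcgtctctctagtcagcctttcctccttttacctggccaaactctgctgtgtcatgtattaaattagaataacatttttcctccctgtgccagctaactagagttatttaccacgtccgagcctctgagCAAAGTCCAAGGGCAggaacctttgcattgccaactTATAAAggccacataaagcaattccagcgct
Akr1d1: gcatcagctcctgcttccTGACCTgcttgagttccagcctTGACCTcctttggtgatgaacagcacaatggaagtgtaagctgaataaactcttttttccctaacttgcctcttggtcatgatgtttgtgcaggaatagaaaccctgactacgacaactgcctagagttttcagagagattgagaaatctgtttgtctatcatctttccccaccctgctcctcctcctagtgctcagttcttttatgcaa
Hsd3b7: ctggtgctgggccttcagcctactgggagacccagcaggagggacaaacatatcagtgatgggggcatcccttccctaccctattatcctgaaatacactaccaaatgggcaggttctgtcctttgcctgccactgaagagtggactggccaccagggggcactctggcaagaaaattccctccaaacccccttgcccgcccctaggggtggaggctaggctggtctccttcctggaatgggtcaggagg

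The letters searched, on both strands, were TATAAA (the TATA box), AGGTCA (the core site of nuclear receptors), CAAAGTCCA and CAAGGNCA (forms of the sites of HNF4A and of NR5A2), TTATGTAA (a site of Dbp and its relatives) and CACGTG (the E-box). CAAAGTCCA and CAAGGNCA were chosen after the Cyp8b1 sequence had been seen. The Cyp8b1 promoter held CAAAGTCCA 67 bases, CAAGGNCA 60 bases and TATAAA 31 bases before the start, and the 2 receptor motifs share their CA. Among all 32851 promoters of this length in the table, 0.384% held CAAAGTCCA, 5.53% CAAGGNCA and 12.4% TATAAA. The Akr1d1 promoter held AGGTCA on the opposite strand, 232 and 210 bases before the start, as did 14% of promoters in either orientation. None of the 6 motifs was found in the Hsd3b7, Acox2 or Cyp27a1 windows. TTATGTAA stood in 0.819% and CACGTG in 6.02% of all promoters. These matches describe letters and not binding.

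In CL livers the hydroxylases Cyp7a1, Cyp8b1 and Cyp7b1 were low. After quantile normalization the enzymes of the later steps were at or somewhat above their chow level, which did not hold on every scale. Under median centring Slc27a5 was called as lower (-0.44, adjusted p = 0.0117 from limma). Relative to NC, 3 of the 10 enzymes fell in CL livers (Cyp7a1, Cyp8b1 and Cyp7b1), 3 rose (Hsd3b7, Akr1d1 and Acox2) and 4 were not called (Cyp27a1, Amacr, Slc27a5 and Baat). Over all genes 23.3% were called in this comparison, 12% as higher and 11.3% as lower. The median log2 fold change was 0.087 over the 10 enzymes and -0.036 over all genes, and for the enzymes it ran from -0.22 under median centring to 0.29 under scaling to the hepatocyte markers. For 2 of the 10, Cyp7a1 and Cyp8b1, every CL mouse lay below every NC mouse, which was so for 7.85% of all genes. The split of calls depended on how the arrays were scaled. It was 3 higher and 3 lower with quantile normalization and with the signals as deposited, 0 and 4 under median centring, 1 and 3 with trimmed-mean scaling, and 6 and 3 with scaling to the hepatocyte markers, the last chosen after seeing the data. The calls over all genes shifted too, to 28.2% higher and 1.17% lower without scaling, 9.37% and 15.2% under median centring, 15.2% and 10.2% under trimmed-mean scaling, and 32.6% and 1.51% under scaling to the hepatocyte markers.

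**Figure D1:**
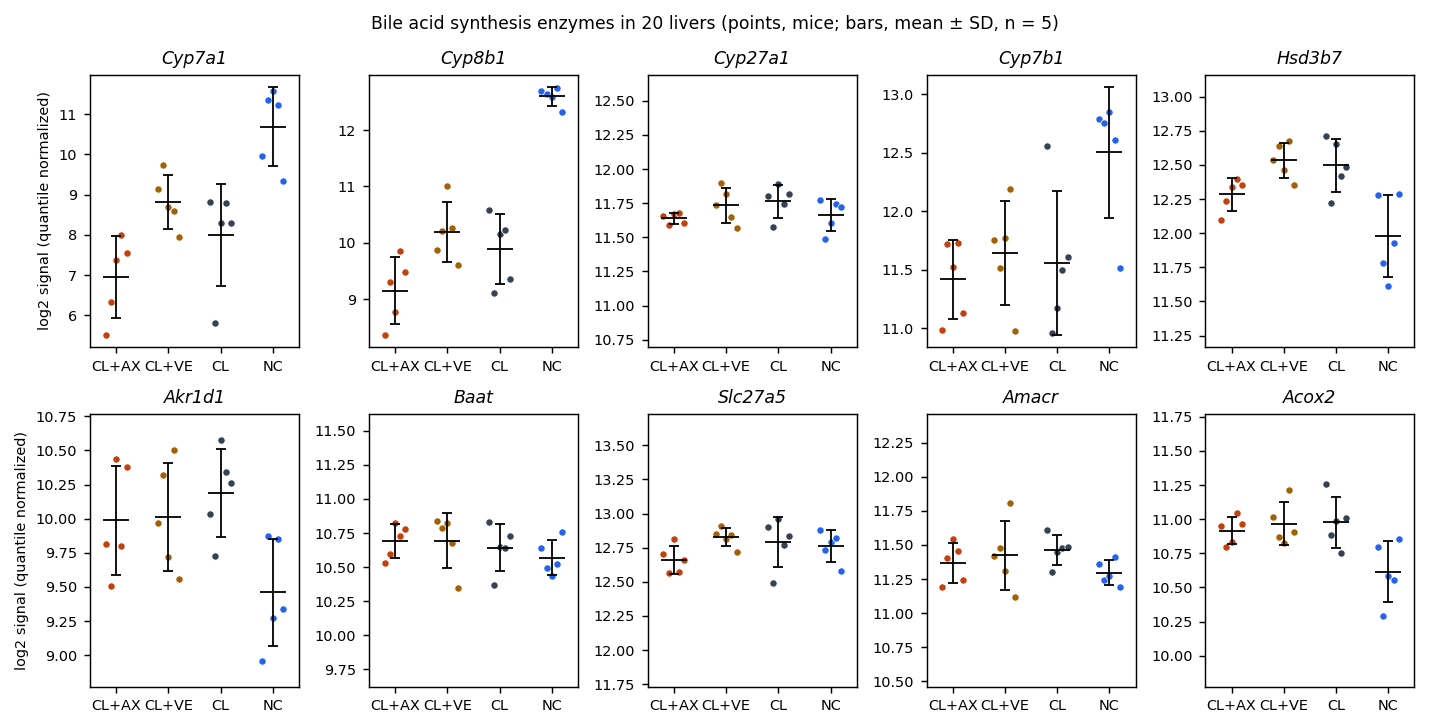
Quantile-normalized log2 signal of the 10 enzymes (vertical axes, each panel with its own range) in the 4 diet groups, 1 point per mouse, with the mean and SD of 5 mice as bars. For Cyp8b1 the 5 NC mice sit between 12.32 and 12.75, above all mice on the CL diets, while for Cyp27a1 the 4 groups overlap between 11.49 and 11.89.

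Cyp7a1, the cholesterol 7α-hydroxylase that limits the rate of the classic route, had the lowest signals in CL + AX livers. Its log2 signal was 5.51, 6.34, 7.37, 8.0 and 7.55 in CL + AX mice and 9.14, 9.73, 8.69, 8.59 and 7.94 in CL + VE mice. It was 8.82, 5.80, 8.29, 8.79 and 8.30 in CL mice, against 9.96, 11.35, 11.58, 11.23 and 9.35 in NC mice. CL replicate 2, whose macrophage marker mean of 9.48 was the highest of the 20 arrays, stood far below the other CL mice, and NC lay wholly above CL. The signal fell by 2.69 in CL relative to NC (SE 0.54, adjusted p = 0.00109), which is 6.47-fold lower. Without CL replicate 2 the fall was 2.15 (adjusted p = 0.00278). A second, dimmer probe set of the gene gave -2.65 (SE 0.54, adjusted p = 0.00126). With astaxanthin the fall from NC was 13.3-fold (log2 fold change -3.74, SE 0.54, adjusted p = 3.97e-05), and with vitamin E it was 3.66-fold (log2 fold change -1.87, SE 0.54, adjusted p = 0.0238). The 3 comparisons with chow share the NC arrays. In the CL + VE group 1 mouse reached 9.73, above the lowest NC mouse, and the call was lost without NC replicate 2, 3 or 4 or CL + VE replicate 4 or 5 (adjusted p up to 0.0687).

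Cyp8b1, the sterol 12α-hydroxylase that commits intermediates to cholic acid, had the smallest adjusted p of the 10 enzymes in each comparison with chow. Its log2 signal was 8.37, 9.30, 8.77, 9.86 and 9.49 in CL + AX mice and 9.87, 10.21, 11.01, 10.27 and 9.60 in CL + VE mice. It was 10.59, 9.12, 10.16, 10.23 and 9.35 in CL mice, against 12.70, 12.63, 12.58, 12.75 and 12.32 in NC mice. The NC mice were close together and above all 15 others. Relative to NC the signal was 6.53-fold lower in CL (log2 fold change -2.71, SE 0.28, adjusted p = 9.88e-07), 10.8-fold lower in CL + AX (-3.44, SE 0.28, adjusted p = 6.21e-08) and 5.30-fold lower in CL + VE (-2.40, SE 0.28, adjusted p = 7.14e-06). These falls were called in all 20 fits that left out 1 array each. Of the 10 enzymes, only Cyp8b1 was called in CL by the methods' t-test after the Benjamini-Hochberg adjustment, where 3444 of 45037 probe sets were. The Cyp8b1 promoter is the one printed above with the TATA box.

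The acidic route gave a weaker picture. Cyp7b1, the oxysterol 7α-hydroxylase, had log2 signals of 10.99, 11.72, 11.53, 11.72 and 11.13 in CL + AX mice and 11.75, 11.51, 11.77, 12.19 and 10.98 in CL + VE mice. In CL mice they were 12.56, 10.96, 11.17, 11.49 and 11.61, against 12.79, 12.76, 12.85, 12.61 and 11.51 in NC mice. CL replicate 1 lay among the chow mice and NC replicate 5 among the CL mice, so the groups overlapped. The signal was 1.92-fold lower in CL than in NC (log2 fold change -0.94, SE 0.27, adjusted p = 0.0185), 2.12-fold lower in CL + AX (-1.09, adjusted p = 0.00720) and 1.82-fold lower in CL + VE (-0.86, adjusted p = 0.0395). A second probe set gave -1.41 (adjusted p = 0.00205) in CL and another, dim one 0.11 (adjusted p = 0.961). The call in CL was lost without NC replicate 3 or CL replicate 2 or 3 (adjusted p up to 0.0615) and with the mean of the 3 probe sets (-0.75, adjusted p = 0.123). The mean of the 3 also ended the calls in CL + AX (adjusted p = 0.0769) and CL + VE (adjusted p = 0.184), and the call in CL + VE held in 12 of the 20 fits that left out 1 array. Cyp27a1, the mitochondrial hydroxylase that opens this route, lay between 11.59 and 11.68 in CL + AX, 11.57 and 11.89 in CL + VE, 11.57 and 11.89 in CL and 11.49 and 11.77 in NC. Its log2 fold change between CL and NC was 0.099 (95% interval -0.049 to 0.25, adjusted p = 0.397), an interval that leaves out changes as large as those of Cyp7a1 or Cyp8b1.

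The enzymes of the ring steps moved the other way, with overlap between the CL and NC groups. Hsd3b7, the steroid dehydrogenase that acts on the ring after the first hydroxylation, had log2 signals of 12.10, 12.24, 12.34, 12.40 and 12.35 in CL + AX mice and 12.54, 12.64, 12.46, 12.67 and 12.35 in CL + VE mice. In CL mice they were 12.71, 12.22, 12.65, 12.42 and 12.49, against 12.28, 11.78, 11.61, 11.93 and 12.29 in NC mice. Every CL + VE mouse lay above every NC mouse, as for 7.04% of all genes, and CL and NC overlapped. Hsd3b7 was 1.44-fold higher in CL than in NC (log2 fold change 0.52, SE 0.12, adjusted p = 0.00248) and 1.47-fold higher in CL + VE (0.56, adjusted p = 0.00211), while CL + AX had 0.31 (adjusted p = 0.0714). Akr1d1, the 5β-reductase that bends the steroid ring system, had 9.81, 9.51, 10.44, 9.80 and 10.38 in CL + AX mice and 9.97, 10.32, 9.72, 10.50 and 9.56 in CL + VE mice. In CL mice its log2 signal was 10.04, 9.73, 10.58, 10.34 and 10.26, against 8.96, 9.87, 9.27, 9.85 and 9.34 in NC mice. Only CL replicate 2 lay among the chow mice. Akr1d1 was 1.66-fold higher in CL than in NC (log2 fold change 0.73, SE 0.21, adjusted p = 0.0175), and its second probe set gave 0.59 (adjusted p = 0.0292). CL + AX had 0.53 (adjusted p = 0.0922) and CL + VE 0.55 (adjusted p = 0.0898) relative to NC. There the second probe set gave less, 0.12 in CL + AX (adjusted p = 0.736) and 0.32 in CL + VE (adjusted p = 0.312). The call in CL was lost without NC replicate 1 or CL replicate 3 (adjusted p up to 0.0567).

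Among the enzymes of the side chain, Acox2, the peroxisomal oxidase of branched acyl-CoA, rose slightly. Its log2 signal was 10.95, 10.80, 10.83, 11.05 and 10.96 in CL + AX mice and 11.02, 10.87, 10.82, 11.22 and 10.91 in CL + VE mice. It was 11.26, 10.88, 10.98, 10.75 and 11.01 in CL mice, against 10.80, 10.29, 10.59, 10.55 and 10.86 in NC mice. The ranges met at the top of the chow group. Relative to NC it was 1.29-fold higher in CL (log2 fold change 0.36, SE 0.10, adjusted p = 0.0157), 1.23-fold higher in CL + AX (0.30, adjusted p = 0.0449) and 1.28-fold higher in CL + VE (0.35, adjusted p = 0.0247). The call in CL was lost without NC replicate 2 or CL replicate 1 (adjusted p up to 0.0560), and that in CL + AX in 10 of the 20 fits that left out 1 array. Without the variance trend the adjusted p in CL was 0.0527. Amacr, the racemase that prepares the side chain for Acox2, had 0.17 in CL (95% interval -0.033 to 0.37, adjusted p = 0.273), with signals from 11.31 to 11.61 in CL and from 11.19 to 11.41 in NC.

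The conjugating enzymes were not called in any comparison with chow after quantile normalization, but other scalings gave calls in either direction. Slc27a5, the ligase that couples bile acids to coenzyme A, ranged from 12.56 to 12.81 in CL + AX, from 12.72 to 12.91 in CL + VE, from 12.49 to 12.96 in CL and from 12.58 to 12.88 in NC. Its log2 fold change in CL was 0.029 (95% interval -0.14 to 0.19, adjusted p = 0.865). Baat, which transfers the coenzyme A ester to taurine or glycine, ranged from 10.53 to 10.82 in CL + AX, from 10.35 to 10.84 in CL + VE, from 10.37 to 10.83 in CL and from 10.43 to 10.75 in NC. It had 0.074 in CL (95% interval -0.13 to 0.27, adjusted p = 0.678), and its second probe set 0.23 (adjusted p = 0.389). Relative to NC, Slc27a5 was called as lower in CL + AX under median centring (-0.76, adjusted p = 5.79e-05) and trimmed-mean scaling (-0.47, adjusted p = 0.00442). Baat was called as higher under scaling to the hepatocyte markers, in CL + AX (0.48, adjusted p = 0.00225) and in CL (0.34, adjusted p = 0.0360).

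The falls held on every scale and the rises did not. Under the 5 scalings the log2 fold change of CL over NC was -2.90 to -2.39 for Cyp7a1, -3.09 to -2.58 for Cyp8b1 and -1.37 to -0.87 for Cyp7b1, each called under all 5. With median centring, Hsd3b7 had 0.12 (adjusted p = 0.670), Acox2 0.11 (adjusted p = 0.598) and Akr1d1 0.56 (adjusted p = 0.0954), none called. With trimmed-mean scaling, Hsd3b7 had 0.26 (adjusted p = 0.194) and Acox2 0.26 (adjusted p = 0.112), while Akr1d1 was called with 0.71 (adjusted p = 0.0220). Cyp27a1, Amacr, Slc27a5 and Baat changed sign between scalings. The median of all genes moved by -0.036 with quantile normalization, by 0.39 without scaling, by -0.11 with median centring, by 0.031 with trimmed-mean scaling and by 0.39 with scaling to the hepatocyte markers.

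**Figure D2:**
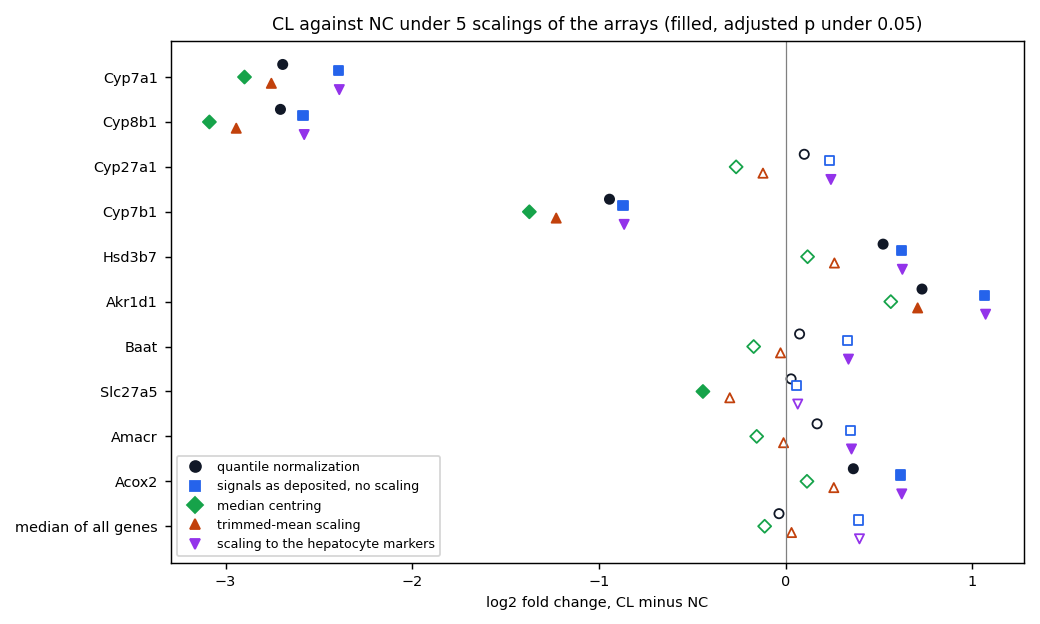
Log2 fold change of CL over NC (horizontal axis) for the 10 enzymes and for the median of all genes under 5 scalings of the arrays, with filled symbols for an adjusted p under 0.05. Cyp7a1, Cyp8b1 and Cyp7b1 stay filled and left of 0 throughout, whereas Hsd3b7 and Acox2 are open under median centring and trimmed-mean scaling.

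With a supplement, the comparison with chow kept the same falls. In CL + AX livers 4 of the 10 enzymes were called relative to NC (Cyp7a1, Cyp8b1 and Cyp7b1 lower, Acox2 higher), where 23.3% of all genes were, 12% as higher and 11.3% as lower. In CL + VE livers 5 were called (Cyp7a1, Cyp8b1 and Cyp7b1 lower, Hsd3b7 and Acox2 higher), where 17.5% of all genes were, 10.2% as higher and 7.27% as lower. The CL + AX mice lay wholly below the NC mice for Cyp7a1 and Cyp8b1, as for 8.58% of genes, and the CL + VE mice for Cyp8b1 alone, as for 5.22% of genes. The split of calls in CL + AX was 4 higher and 3 lower without scaling, 0 and 6 under median centring, 0 and 5 under trimmed-mean scaling, and 5 and 3 under scaling to the hepatocyte markers. Over all genes 42.7% were called higher and 1.15% lower without scaling, 7.56% and 21.3% under median centring, 16.8% and 10.2% under trimmed-mean scaling, and 46.1% and 1.33% under scaling to the hepatocyte markers. In CL + VE the enzymes' split was 1 and 3, 0 and 3, 0 and 3, and 3 and 3 in the same order of scalings. The shares of all genes there were 12% and 1.57%, 8.88% and 8.68%, 12.8% and 6.86%, and 23.5% and 1.48%. Cyp27a1 was among the calls in CL + AX under median centring (-0.58, adjusted p = 0.000265) and trimmed-mean scaling (-0.29, adjusted p = 0.0201). These comparisons reuse the NC arrays of the CL comparison and are not independent of it.

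The direct question of what each supplement changed on the CL diet gave no called enzyme. Between CL + AX and CL 0 of 10 were called by limma, as were 0% of all genes, and at an unadjusted p under 0.05 there was 1, where 8.05% of genes were. That gene was Cyp8b1, with a difference of -0.73 (95% interval -1.31 to -0.15, adjusted p = 0.571). Cyp7a1 had -1.04 (95% interval -2.17 to 0.080, adjusted p = 0.731), and with 1 array left out it ranged from -1.60 (without CL replicate 2, adjusted p = 0.332) to -0.69 (without CL + AX replicate 1, adjusted p = 0.942). On the probe sets used, the other 8 enzymes lay between -0.21 and 0.049. A second probe set gave -0.47 for Akr1d1 (adjusted p = 0.590) and -1.14 for Cyp7a1 (adjusted p = 0.687). A dim one of Cyp27a1 gave -2.08 (adjusted p = 0.603). These had an unadjusted p under 0.05 in limma, and the further probe sets of Baat and Cyp7b1 did not. The methods' t-test called 0, also unadjusted, where 0 of 45037 probe sets were called adjusted and 3261 unadjusted. The interval for Cyp7a1 holds no change as well as a fall of 2.17, so for this gene a difference of moderate size was not detectable with 5 mice per group.

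Between CL + VE and CL 0 of 10 were called by limma, as were 0% of all genes, and 0 at an unadjusted p under 0.05, where 7.55% of genes were. The methods' t-test called 0, also unadjusted, where 0 of 45037 probe sets were called adjusted and 3079 unadjusted. Cyp7a1 had a log2 fold change of 0.82 (95% interval -0.30 to 1.95, adjusted p = 0.784), which was 0.27 (adjusted p = 0.947) without CL replicate 2. Cyp8b1 had 0.30 (95% interval -0.28 to 0.88, adjusted p = 0.874). On the probe sets used, the other 8 enzymes lay between -0.18 and 0.082.

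The groups that stood farthest apart on the CL diet, by the counts at an unadjusted p, were the supplemented ones. Between CL + AX and CL + VE 0 of 10 enzymes passed the adjusted p, as did 0% of all genes, but 4 had an unadjusted p under 0.05, all with lower signals in CL + AX, where 10.2% of genes had one. Cyp7a1 had a log2 fold change of -1.87 (95% interval -2.99 to -0.74, adjusted p = 0.254), and its second probe set -1.58 (adjusted p = 0.341). Only 1 CL + AX mouse, at 8.0, lay above the lowest CL + VE mouse, at 7.94. Cyp8b1 had -1.03 (95% interval -1.61 to -0.45, adjusted p = 0.219), Hsd3b7 -0.25 (adjusted p = 0.536) and Slc27a5 -0.17 (adjusted p = 0.552). With median centring 5 enzymes were called as lower in CL + AX, where 6.11% of all genes were and the median of all genes moved by -0.17. They were Cyp8b1 (-1.25, adjusted p = 0.0142), Slc27a5 (-0.49, adjusted p = 0.0259), Cyp7a1 (-2.0, adjusted p = 0.0354), Hsd3b7 (-0.57, adjusted p = 0.0365) and Cyp27a1 (-0.40, adjusted p = 0.0365). Without scaling no enzyme was called, where 3.75% of all genes were called as higher and 0.0165% as lower. Of these 5, Cyp27a1 (0.15) and Slc27a5 (0.055) were then higher in CL + AX. Trimmed-mean scaling and scaling to the hepatocyte markers called 0% of all genes as lower. The median deposited signals of the CL + AX arrays all lay above those of the CL + VE arrays, and the part of array level in this comparison was not tested.

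**Figure D3:**
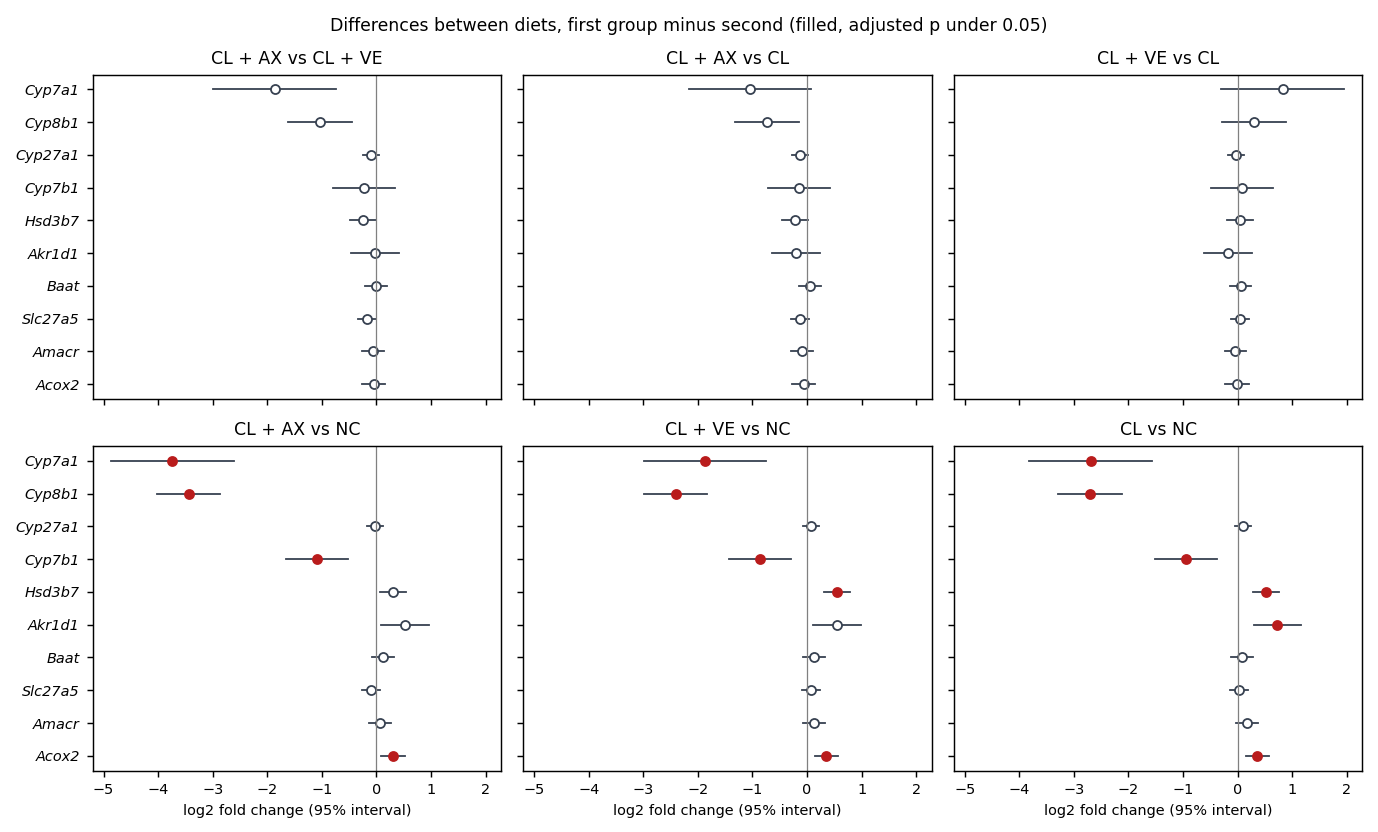
Log2 fold change of the first group over the second (horizontal axes, with 95% intervals) for the 10 enzymes in 6 comparisons, with filled symbols for an adjusted p under 0.05. The lower row, against NC, holds 4, 5 and 6 filled points for CL + AX, CL + VE and CL, and the upper row, among the CL diets, holds 0.

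Across the 20 arrays Cyp7a1 and Cyp8b1 went together (r = 0.881), and less so once the group means were removed (r = 0.606). These arrays share the 4 groups, so r is a description with no test. Among 11397 genes at or above the median signal, those most like Cyp7a1 were Tst (r = 0.948), Sbk1 (0.942), Slc47a1 (0.941), Pafah2 (0.938) and Sult5a1 (0.930), with r of 0.78 to 0.84 within groups. Those most like Cyp8b1 were Tlr5 (r = 0.949), Vwa8 (0.947), Etfb (0.940), Tmem120a (0.938) and Hspd1 (0.934), with r of 0.50 to 0.67 within groups. Among the enzymes, r within groups was 0.732 for Hsd3b7 with Baat and 0.710 for Cyp7b1 with Amacr.

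Further enzymes of the pathway moved in both directions. Of 15 listed, 12 were measured (no probe set names Acnat1, Por or Fdxr alone), and 2 were higher and 3 lower in CL than in NC, where 12% and 11.3% of all genes were. The split was 2 and 6 under median centring, where 9.37% and 15.2% of all genes were called. It was 3 and 1 under scaling to the hepatocyte markers, where 32.6% and 1.51% were. Cyp2c70, which makes muricholic acids in mice, was 3.12-fold higher (log2 fold change 1.64, SE 0.22, adjusted p = 2.13e-05), at 11.96 to 12.96 in CL and 9.86 to 11.29 in NC. Cyp39a1, an oxysterol hydroxylase, was 2.24-fold higher (1.17, SE 0.27, adjusted p = 0.00330), with 9.05 to 10.58 in CL + AX, 8.44 to 9.23 in CL + VE, 8.32 to 9.25 in CL and 7.28 to 8.52 in NC. Abcd3, a peroxisomal importer of bile acid intermediates, had -0.35 (SE 0.055, adjusted p = 9.72e-05), Acot8, a peroxisomal thioesterase, -0.59 (SE 0.10, adjusted p = 0.000313) and Cyp46a1, a cholesterol hydroxylase known from the brain, -0.93 (SE 0.25, adjusted p = 0.0110). Cyp2c70, Cyp39a1 and Abcd3 were called in these directions under all 5 scalings, and Acot8 and Cyp46a1 under 3 of them. Cyp46a1 was dim, with log2 signals of 4.71 to 5.29 in CL and 5.24 to 6.59 in NC, so the size of its change is uncertain.

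Among 16 regulators measured, 1 was higher and 4 were lower in CL than in NC, where 12% and 11.3% of all genes were. Without scaling the split was 5 and 1, where 28.2% and 1.17% of all genes were. The bile acid receptor Nr1h4 had -0.49 on the log2 scale (SE 0.13, adjusted p = 0.0112), the xenobiotic receptor Nr1i2 -0.53 (SE 0.12, adjusted p = 0.00287) and the hepatocyte factor Hnf4a -0.29 (SE 0.092, adjusted p = 0.0330), each called under 3 of 5 scalings. Nr0b2, the repressor SHP, had 9.52 to 10.80 in CL + AX, 9.85 to 10.49 in CL + VE, 9.75 to 10.22 in CL and 7.87 to 10.23 in NC. Its log2 fold change relative to NC was 1.10 in CL + AX (SE 0.30, adjusted p = 0.0131), 0.98 in CL + VE (SE 0.30, adjusted p = 0.0327) and 0.87 in CL (SE 0.30, adjusted p = 0.0502), the last not called. Zfp36l1, an RNA-binding protein known in mice to bind the Cyp7a1 transcript, was 1.70-fold higher in CL than in NC (0.77, SE 0.15, adjusted p = 0.000617). Of 11 transporters, 3 were higher and 1 lower in CL, where 12% and 11.3% of all genes were. The split was 2 and 4 under median centring, where 9.37% and 15.2% of all genes were called. It was 2 and 0 without scaling, where 28.2% and 1.17% were. The bile salt export pump Abcb11 had 0.93 (SE 0.15, adjusted p = 0.000176) and the basolateral exporter subunit Slc51b 1.96 (SE 0.43, adjusted p = 0.00232), both called under all 5 scalings. Slc51b was dim, with log2 signals of 0.65 to 3.94 in NC and 4.71 to 5.23 in CL, so the size of its change is uncertain. Slco1b2, an uptake carrier, had 0.25 (adjusted p = 0.0374) and Abcc3, a basolateral pump, -0.22 (adjusted p = 0.0321), and these 2 changed sign between scalings.

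**Figure D4:**
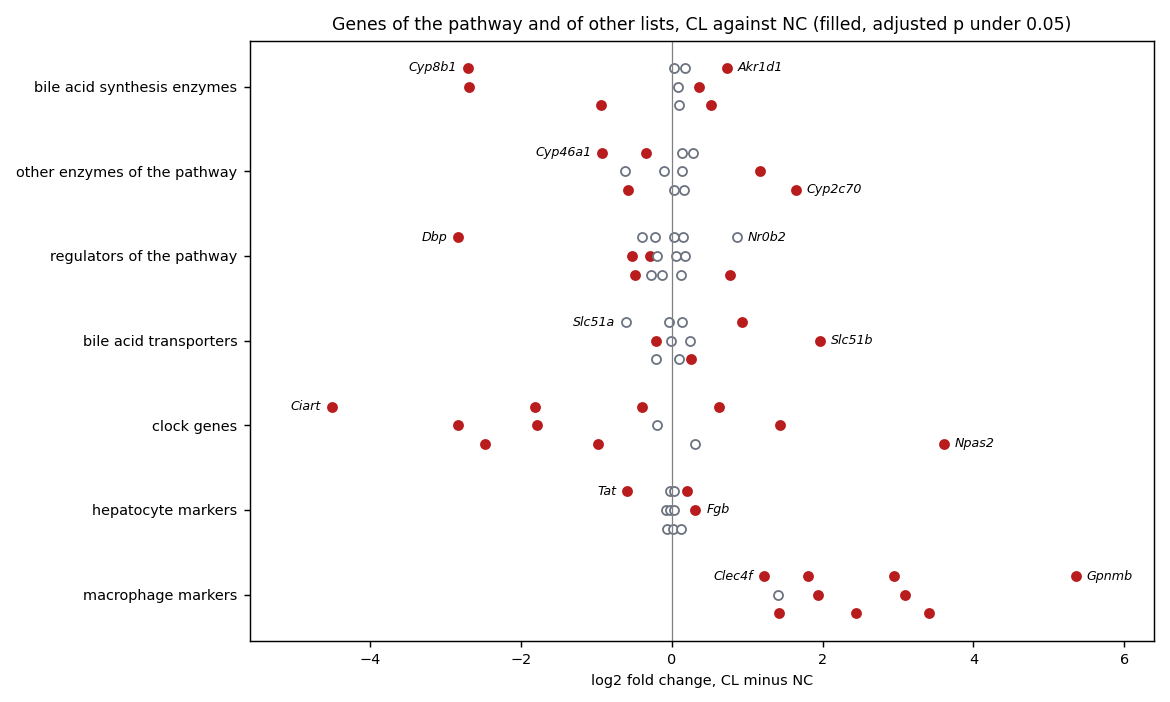
Log2 fold change of CL over NC (horizontal axis) for each measured gene of 7 lists, 1 point per gene, filled for an adjusted p under 0.05 and with the outermost genes named. The macrophage markers all lie right of 0, with 9 of 10 filled, and the bile acid synthesis enzymes run from -2.71 for Cyp8b1 to 0.73 for Akr1d1.

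Clock genes moved with the diet as well, and Cyp7a1 is known to follow the daily cycle. Of 12 clock genes, 3 were called as higher and 7 as lower in CL than in NC, where 12% and 11.3% of all genes were. For 8 of the 12 the groups did not overlap, where 15.9% of all genes did not. Dbp, a clock output factor known to act on Cyp7a1 in rodents, had 5.22 to 6.55 in CL + AX, 6.05 to 8.14 in CL + VE, 6.33 to 8.12 in CL and 8.85 to 10.61 in NC (log2 fold change of CL over NC -2.84, SE 0.39, adjusted p = 2.22e-05). The clock repressor Per1 had -1.79 (SE 0.19, adjusted p = 1.25e-06) and the output factor Tef -0.99 (SE 0.13, adjusted p = 2.25e-05). None of the 12 was called between CL + AX and CL or between CL + VE and CL by limma, where 0% of all genes were. At an unadjusted p under 0.05 there were 3 and 0, where 8.05% and 7.55% of all genes were. The hour of collection is not given in the sources used here, and the part of the clock in the levels of the enzymes was not tested.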

How the data were processed

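Liver RNA of 20 mice (5 per group by GEO's labels) was hybridized to 1 array each. The deposited intensity values are MAS5 signals that the authors made on a linear scale, 1 for each array and each of 45101 probe sets, from 0.0139 to 18757, and arrays differ in their level. The 64 control probe sets were removed, and log2 signals were quantile normalized, and limma 3.58.1 (R 4.3.3) fitted 1 model of the 4 groups, with a variance prior that follows the mean signal. The Benjamini-Hochberg adjustment ran over 45037 probe sets, with 0.05 as the threshold. Of these, 34945 name 1 gene, 932 several and 9160 none, by GEO's platform annotation. For each of 18193 genes the brightest probe set (by mean log2 over all arrays) that names no other gene was used. Correlations between arrays ran from 0.896 to 0.940, and 0 pairs were identical. No date or batch is given in the sources used here.

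The enzymes and the gene lists were chosen with earlier results of these data known. The text names all 10 enzymes, from each other list genes among the 4 with the smallest p in at least 1 of the 6 comparisons, and the 5 genes with the highest correlation with Cyp7a1 and with Cyp8b1. The fit was tested on simulated data. Alternatives were no scaling, median centring, scaling to the mean of the middle 96% of signals, 16 added before log2, a filter at the median signal, no variance trend, only the 2 groups compared, the methods' t-test (Welch), the mean of all probe sets of a gene, the replicate number as a block, each array left out in turn and, added after seeing the data, scaling to the hepatocyte markers.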

Additional observations from a re-analysis of the deposited data

Results flagged for a closer look

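In 40 groups of 5 mice (10 enzymes in 4 groups), 2 held a mouse far from the other 4 by Dixon's ratio, above its critical value of 0.71, and chance alone flags about 1 in 20. Cyp7a1 was at 5.80 on the log2 scale in CL replicate 2, against 8.29 to 8.82 in the other CL mice. In the same mouse the other enzymes, Acox2 excepted, were also the lowest of the CL group, among them Cyp8b1 (9.12), Cyp7b1 (10.96) and Slc27a5 (12.49). Its macrophage markers had a mean log2 signal of 9.48, the highest of the 20 arrays, and its stellate cell markers one of 8.55, the highest of the CL group, and their part in these values was not tested. Without it the fall of Cyp7a1 in CL relative to NC was 2.15 (adjusted p = 0.00278 from limma) rather than 2.69, and that of Cyp7b1 was 0.79 (adjusted p = 0.0615) and no longer called. Cyp7b1 was at 11.51 in NC replicate 5, against 12.61 to 12.85 in the other NC mice, and without this mouse its log2 fold change was -1.19 (adjusted p = 0.00170). The same mouse had the lowest Cyp7a1 (9.35) and Cyp8b1 (12.32) of the NC group.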

How the results depend on the processing

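The counts of called enzymes were 6 of 10 for CL, 4 for CL + AX and 5 for CL + VE, each relative to NC, and 0 among the CL diets. With no scaling CL + AX gave 7, where 43.9% of all genes were called, and with scaling to the hepatocyte markers 8, where 47.4% were. CL + VE gave 3 with median centring, where 17.6% of all genes were called, and 3 with trimmed-mean scaling, where 19.7% were. It gave 2 with no variance trend. With median centring CL + AX against CL + VE gave 5, where 6.17% of all genes were called. The methods' t-test gave 1 for CL, 2 for CL + AX and 1 for CL + VE. Of all 45037 probe sets, that test called 3444 for CL, 3964 for CL + AX and 1632 for CL + VE. The values that changed direction with median centring and were called in either setting were Slc27a5 in CL (-0.44, adjusted p = 0.0117), Amacr in CL + AX (-0.44, adjusted p = 0.00892) and Acox2 in CL + AX (-0.12, adjusted p = 0.570), each relative to NC, and the cause was not tested. Of 60 fold changes, 16 changed sign with median centring, 15 without scaling, 11 with trimmed-mean scaling, 9 with scaling to the hepatocyte markers and 2 with the mean of all probe sets. Of these, Acox2 in CL + AX was called after quantile normalization. With 1 array left out, CL gave 4 to 6, CL + AX 3 to 5, CL + VE 2 to 5 and the comparisons among the CL diets 0. CL + VE gave 2 without NC replicate 2, 3 or 4 and 3 without CL + VE replicate 1 or 4. CL gave 4 without CL replicate 3. No share of all genes is given here for the fits without the variance trend or with 1 array left out.

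With the replicate number as a block the counts were 6 for CL, 4 for CL + AX, 5 for CL + VE and 0 among the CL diets, and all 60 values kept their call and direction. Arrays of the same number had a mean correlation of deviations of -0.024 to 0.063, against -0.011 for different numbers, and 12 of 20 arrays, not all, correlated best with their own number, a hint from the data alone. The labels tie no number to a shared cage, batch or day, and the mice were treated as not paired. All 10 enzymes were read from probe sets at or above the 89.2 percentile of mean signal, and the number of arrays limits the precision.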
